A study of Mus musculus with 32 samples.

Results

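The ethanol effect in WSR-2 was examined on the 8 arrays of this mouse population, 4 from mice in withdrawal after ethanol vapour (EtOH) and 4 from air controls (Air), out of 32 arrays in the series. The 8 arrays were chosen by their labels alone, as every array titled WSR-2. WSR-2 is the second of 2 independently derived Withdrawal Seizure-Resistant populations, bred from genetically mixed HS/Ibg mice for mild withdrawal, and the series also holds WSR-1 and the seizure-prone populations WSP-1 and WSP-2 with 8 arrays each. Female and male mice contributed 2 arrays to each treatment, and each array was hybridised with 33P-labelled cDNA from a pool of 2 mice, so 16 mice stand behind the 8 arrays. The mice were drug-naive adults of the 26th selected generation; the EtOH mice received an intraperitoneal injection of ethanol at 1.5 g/kg, breathed vapour for 72 h and were bled daily from the tail, and the Air mice sat in air chambers. Every mouse, the controls included, received 3 injections of pyrazole at 68.1 mg/kg, an inhibitor of alcohol dehydrogenase that steadies blood ethanol. Prefrontal cortex was taken 8 h into withdrawal. The 2 pools of a sex and treatment hold different mice but only 2 of them each, and selection from a small closed population fixes alleles by chance, so a value of WSR-2 speaks for that population only.

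Ethanol enhances inhibition through GABA receptors and dampens glutamate signalling, and a brain that has adapted to its constant presence becomes overexcitable when it is removed. Withdrawal convulsions are the sign of this state for which the lines were selected. The prefrontal cortex takes part in executive control and in the regulation of drinking, and its astrocytes clear and recycle the glutamate that neurons release.

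Each array carried 4696 cDNA clone spots with an accession, 1110 of them titled with a named gene, beside 192 spots of genomic DNA that serve as controls. Values below are background-corrected, quantile-normalised spot signals on the log2 scale, where 1 unit is a doubling. Between 51.1% and 79.6% of clones lay above background on the 8 arrays. The mean share was 59.7% ± 5.88 (SD, n = 4) in EtOH and 62.6% ± 12.4 (SD, n = 4) in Air, with a 2-sided exact permutation p within sex of 0.611 (0.889 adjusted over 2 array measures), where the smallest p that these 36 arrangements allow is 0.0556. The offset of the background correction sets a floor of 5.64, and 84% of clones had a WSR-2 mean within 1 unit of it, so that differences of dim clones are understated. Brain markers were in part dim: the neuronal filament gene Ina was above background on all 8 arrays, while the astrocyte gene Aldoc was so on 3. Haemoglobin alpha and transthyretin, which mark blood and choroid plexus, were bright at 10.58 and 9.84 and differed between EtOH and Air by 0.01 and 0.04. The Y-linked Eif2s3y clone read 6.31, 6.31, 6.46 and 6.43 on the female arrays and 6.42, 6.35, 6.50 and 6.26 on the male arrays, so it did not separate the sexes, and the labels of sex could not be checked with it.

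The 8 arrays fell into 4 pairs, each of a female and a male array of opposite treatment. On the genomic DNA spots, which hold no cDNA of a single gene, the deviations of 2 arrays from the mean of all 32 correlated at 0.42 for Female Air 1 with Male EtOH 2, at 0.40 for Female Air 2 with Male EtOH 1, at 0.65 for Female EtOH 1 with Male Air 2 and at 0.67 for Female EtOH 2 with Male Air 1 (Spearman). Over the other 24 combinations this correlation lay between -0.23 and 0.11, and the pairs were defined on these same correlations. On the clone spots, left out of the definition of pairs, the same pattern appeared, with Pearson correlations of 0.42 to 0.78 within pairs and -0.23 to 0.13 otherwise. Arrays of the same sex and treatment, which are biological replicates, had a median clone correlation of 0.01. Each pair also grouped with 1 male WSP-2 array, in all 4 cases of the same treatment as the female WSR-2 array. The labels do not say what the members of a pair have in common. Because every pair holds 1 EtOH and 1 Air array, what a pair shares drops out of the EtOH effect averaged over both sexes. It does not drop out of the effect in females or in males alone, nor out of their difference: both female EtOH arrays are paired with both male Air arrays, so the pair and a sex-specific effect of ethanol cannot be told apart.

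**Figure D1:**
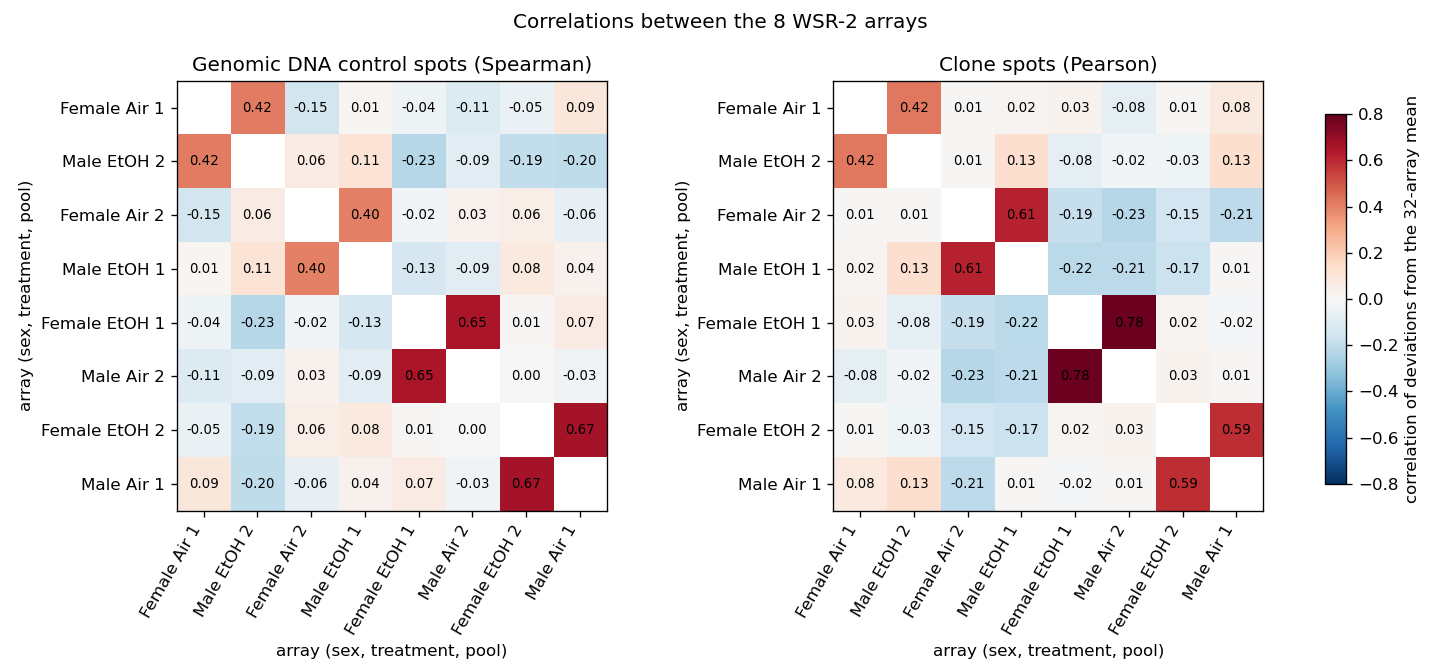
Correlations between the 8 WSR-2 arrays of their deviations from the mean of the 32 arrays, on the genomic DNA control spots (left, Spearman) and on the clone spots (right, Pearson), with arrays ordered by pair. The 4 female and male arrays of opposite treatment that form pairs reach 0.40 to 0.67 on the left and 0.42 to 0.78 on the right, while the other squares stay between -0.23 and 0.13.

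The question of the first comparison was which genes differed between EtOH and Air in WSR-2 over both sexes. None of the 4696 clones (0%) passed an adjusted p of 0.05 in limma with sex as a block, and the smallest adjusted p was 1.00. Without adjustment, 11 clones (0.234%) reached a p under 0.05, of which 8 read higher and 3 lower in EtOH. A uniform p would give 234.8. What a pair shares drops out of the difference but stays in the residual spread of this fit, which can make its p-values too large. The absence of calls therefore does not show an absence of effect. With the 4 pairs as a block, chosen after seeing the data and fitted on the 8 WSR-2 arrays alone, limma again called 0 clones. An unadjusted p under 0.05 was reached by 137 (2.92%), 64 higher and 73 lower. With sex as a block on the 8 arrays, normalised and fitted alone, it was reached by 33 (0.703%). The median 95% interval of a difference reached 0.25 log2 units to either side in the first fit and 0.13 with the pairs. The first fit took its spread from all 32 arrays and the pair fit from the 8 of WSR-2. The 2 widths therefore differ by more than the block. A doubling would be 1 unit for a bright clone only. It would read as less for the 84% of clones near the floor, so the interval does not exclude a doubling there. The SD of the differences over clones was 0.068 with the offset of 50 and 0.12 with an offset of 16. The genes that follow are those with the smallest p among named-gene clones above background on all 4 arrays of the higher treatment, 12 in each direction. They are described as values, since none passed the test.

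Cortactin, which binds and branches actin filaments and is enriched in dendritic spines, was the clone with the smallest p among named genes once pairs were blocked. It read 6.50 and 6.43 on the female Air arrays, 6.68 and 6.66 on the male Air arrays, 6.13 and 6.33 on the female EtOH arrays, and 6.09 and 6.27 on the male EtOH arrays. All 4 EtOH arrays lay below all 4 Air arrays, so the EtOH array was by necessity the lower one in each of the 4 pairs. The means were 6.21 ± 0.11 (SD, n = 4) in EtOH and 6.57 ± 0.12 (SD, n = 4) in Air, a difference of -0.36 with an SE of 0.26 and a limma adjusted p of 1.00. With pairs as a block, on the 8 WSR-2 arrays alone, the SE was 0.067 and the limma unadjusted p 0.000375. The limma adjusted p stayed at 1.00. This fit left out the other populations as well as blocking the pairs, so the smaller SE cannot be credited to the pairs alone. Cortactin was the single gene of the 24 whose groups did not overlap. Over all clones, 11 (0.234%) had 4 EtOH arrays above all Air arrays and 21 (0.447%) had them below.

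Several of the other genes with lower means in EtOH owed that mean to 1 sex or 1 array. Glutamine synthetase, the astrocyte enzyme that turns glutamate into glutamine, read 8.86 and 8.59 in female Air, 9.10 and 9.02 in female EtOH, 9.02 and 9.25 in male Air, and 8.11 and 8.48 in male EtOH. Its female arrays were higher in EtOH and its male arrays lower, without overlap within either sex, and the mean difference of -0.25 (SE 0.17) joins 0.34 in females to -0.84 in males. Adducin 3, which caps actin and joins it to spectrin, stood at 0.18 in females, with overlapping arrays, and at -0.73 in males. Endonuclease G, a mitochondrial nuclease, differed by -0.32 (SE 0.19), and this rested on Male EtOH 1 at 5.98, since the other 7 arrays lay between 6.76 and 7.13. Sepiapterin reductase, which makes the cofactor of the monoamine-synthesising hydroxylases, differed by -0.28, again through Male EtOH 1 at 5.86 against 7.09 to 7.32 on the other arrays. Cd74, the invariant chain of MHC class II molecules, read 10.67, 10.90, 10.43 and 10.48 in Air and 10.58, 10.40, 10.37 and 10.37 in EtOH, a difference of -0.19 (SE 0.15) with overlapping groups. GILZ (Tsc22d3), a target of glucocorticoids, differed by -0.15 because Male Air 2 read 6.53 while the other arrays lay between 5.97 and 6.09. Zinc finger protein 62, the nuclear membrane protein emerin, integrin beta 1 binding protein 1, the DNA repair gene Fanconi anemia complementation group A and the transcription factor deformed epidermal autoregulatory factor 1 completed the 12, with differences of -0.24 to -0.10.

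The 12 genes with higher means in EtOH differed by 0.12 to 0.27. Smad3 (MAD homolog 3), which carries TGF-beta signals to the nucleus, read 8.97 and 9.07 in female Air, 8.77 and 8.71 in female EtOH, 8.59 and 8.59 in male Air and 9.39 and 9.25 in male EtOH. The sexes again went opposite ways, by -0.28 in females and 0.73 in males, and left a mean of 0.23 (SE 0.19). Type 2 deiodinase, which makes the active thyroid hormone in astrocytes, showed -0.23 in females and 0.52 in males. Other genes had the same sign in both sexes. Copz1, a subunit of the coat of Golgi vesicles, was higher by 0.25 in females and 0.14 in males. The lymphocyte surface receptor CD48 was higher by 0.25 and 0.29, and cathepsin J, a lysosomal-type protease known from placenta, by 0.30 and 0.09. Synaptotagmin 4, a synaptic and dense-core vesicle protein, was 7.34 and 7.37 in female EtOH, 7.42 and 7.35 in male EtOH, 6.88 and 7.27 in female Air and 7.25 and 7.48 in male Air, with a difference of 0.14 (SE 0.14). Ferritin light chain 1 (iron storage), outer dense fiber of sperm tails 2, fat specific gene 27 (lipid droplets), RNA binding motif protein 4 (splicing) and solute carrier family 27 member 2 (fatty acid uptake) were others of the 12. Of the 24 genes, 11 had the same sign in females and males and 13 the opposite sign, beside 75.6% of all clones with opposite signs. The 24 were chosen on the effect over both sexes, which favours equal signs. With pairs as a block, 12 of the 24 had an unadjusted p under 0.05, beside the 2.92% of all clones; they had been chosen on the same contrast, so that count supports nothing.

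**Figure D2:**
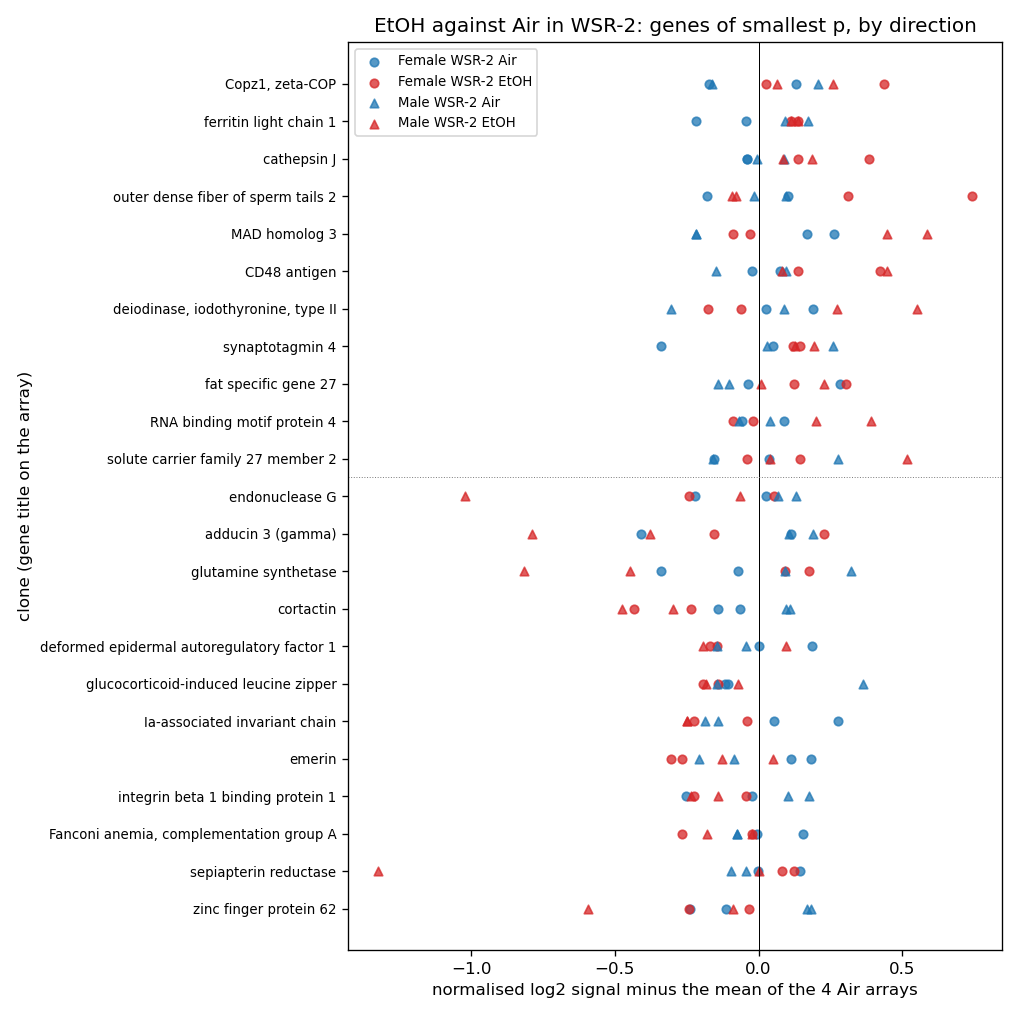
Normalised log2 signal of 23 of the 24 genes on each of the 8 arrays, as the distance from the mean of the 4 Air arrays (blue, Air; red, EtOH; circles, female; triangles, male). Only the cortactin row has all 4 red points to 1 side of all 4 blue points, and single arrays set the differences of endonuclease G and sepiapterin reductase.

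Lists of genes with roles in withdrawal, synapses, stress and immunity were read off the same fit. Of 620 symbols in 33 lists, 142 were matched to a clone title. None was called, none had an unadjusted p under 0.05, and 85 (59.9%) had a higher mean in EtOH against 50.1% of all clones. The medians of the 23 gene lists lay between -0.04 and 0.07, against 0.00 over all clones.

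Immediate early genes, which neurons switch on with activity, had 11 of 29 members measured, 6 higher and 5 lower over both sexes with a median of 0.01. Ier2, the brightest, differed by -0.05, Homer1 by -0.10 and Ier5 by 0.08. The list spread much more within a sex: Ier3 stood at -0.78 in females and 1.02 in males, Egr1 at 0.26 and -0.40, Klf10 at 0.30 and -0.28, and Rgs2 at 0.66 and -0.52. Ier3 read 7.61 on Female Air 2 and 7.34 on its pair member Male EtOH 1, and at most 6.66 elsewhere. Egr1 was above background on 1 Air and 1 EtOH array. It read 6.38 on Female EtOH 1 and 6.52 on its pair member Male Air 2, and 5.74 to 5.83 elsewhere. These values by sex cannot be told apart from the array pairs. Of the 11 members measured in the list, 9 had opposite signs in the sexes, as had 75.6% of all clones.

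The transmitter lists were thin. Glutamate genes had 5 of 26 members measured, 3 higher and 2 lower with a median of 0.01, led by glutamine synthetase as above. Of 17 GABA genes, 2 were measured: the receptor Gabbr1 and the vesicular transporter Slc32a1 both differed by -0.04. The potassium channels Kcnk1 and Kcnk8 differed by 0.04 and 0.06. The vesicle protein Vamp2 differed by 0.04, and the neuropeptides somatostatin and PACAP (Adcyap1) by 0.04 and -0.05.

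Stress genes lay close to no difference on average. All 6 measured heat shock genes had higher means in EtOH, but by 0.01 to 0.06, with Hspa4 at 0.06, Dnajb1 at 0.04 and Cct2 at 0.03, and all 6 had opposite signs in the sexes. The 4 measured genes of the endoplasmic reticulum stress response were higher by 0.02 to 0.05 and also had opposite signs, again beside 75.6% of all clones: Ddit3 (CHOP) stood at 0.05, with -0.16 in females and 0.25 in males, and Ppp1r15a (GADD34) at 0.03, with 0.47 and -0.42. The ethanol-oxidising Cyp2e1 differed by 0.04 and the antioxidant regulator Nfe2l2 by -0.04. Among 8 steroid-related genes, 4 were higher and 4 lower, with GILZ at -0.15 and Hsd17b1 at 0.08.

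Immune genes had 12 of 33 members measured, 4 higher and 8 lower with a median of -0.03, led by Cd74 and by the neuronal chemokine Cx3cl1 at -0.14. TGF-beta and matrix genes had 7 of 9 higher with a median of 0.01, led by Smad3 and by Tgfbi at 0.13. All 4 lipid genes measured were higher with a median of 0.07, among them the LDL receptor at 0.14 and the cholesterol exporter Abcg1 at 0.09, and the 4 cytoskeletal genes were lower with a median of -0.03, among them drebrin (Dbn1) at -0.07, Tubb5 at -0.03 and Ina at -0.0046. Cell cycle genes (Bub1b -0.11, Wee1 0.06) and apoptosis genes (Mcl1 -0.09, Api5 0.07) lay on both sides of 0. So did chromatin genes (Ezh2 0.12, Smarcb1 -0.05, Cbx5 0.02) and ribosomal proteins (2 of 5 higher, median -0.02, Rpl19 0.07). Respiratory chain genes (Cox6a1 0.05, Cox8a 0.03, Ndufv1 -0.03) and proteasome genes (Psma1 0.14, Psmd4 -0.08, Psmd7 0.06) did as well. Kinase, cAMP and phosphatase signalling genes (Fyn 0.04, Akap10 0.05) were 4 higher and 1 lower. Growth factor receptors (Igf1r 0.02, Egfr -0.02, Fgfr3 0.00) also lay on both sides, and the clock gene Timeless stood at 0.03.

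Of the cell type markers, none was called over both sexes. The 4 measured astrocyte markers, 1 higher and 3 lower in EtOH, ran from -0.25 for glutamine synthetase to 0.00 and included Aldoc at -0.02. The 3 oligodendrocyte markers, 2 higher and 1 lower, ran from -0.06 to 0.04, with Nkx6-2 at 0.04 and Enpp2 at 0.00. The 3 vascular markers, 1 higher and 2 lower, ran from -0.05 for Eng to 0.04, with Col4a1 at -0.03. Neuronal Thy1 differed by 0.01, and macrophage Mpeg1 and Cd14 by 0.03 and 0.05. The choroid plexus gene Folr1 differed by -0.07, the striatal Dlx5 by 0.01, the olfactory bulb gene Ddc by -0.01 and the X-linked Kdm6a by -0.01. In bulk tissue, fewer cells of a type and less RNA per cell cannot be told apart.

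**Figure D3:**
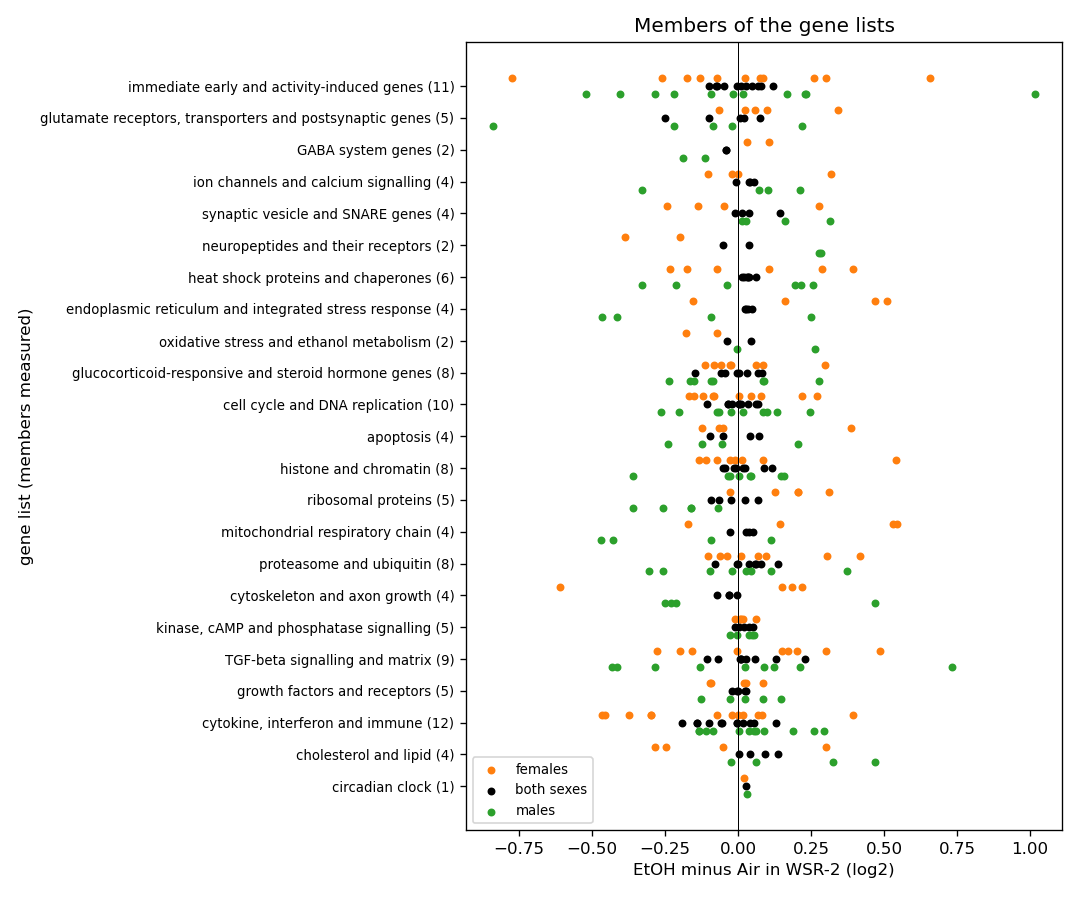
EtOH minus Air difference on the log2 scale of every measured member of 23 gene lists, in females (orange), in males (green) and over both sexes (black). The black points stay within -0.25 and 0.23, while those of either sex spread further and mostly to opposite sides.

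The next comparisons asked for the effect in each sex, at 2 against 2 arrays, and for its difference between the sexes. Across the 4696 clones the female and male effects were opposed, with a Pearson correlation of -0.76 and a Spearman correlation of -0.71, and 75.6% of clones had opposite signs. Over the 1605 clones above background on all 8 arrays the correlations were -0.65 and -0.65. The points are clones that share the 4 array pairs, and an opposition of this kind follows from the pairs wherever the members of a pair deviate together. The SD of the effect over clones was 0.20 in females and 0.19 in males, but 0.068 over both sexes. Limma with 16 group means called 2 clones in females (0.0426%), both higher in EtOH, 1 clone in males (0.0213%), lower in EtOH, and 11 clones for the female minus male difference (0.234%), 10 of them positive. At an unadjusted p under 0.05 there were 212 clones (4.51%) in females, 181 (3.85%) in males and 530 (11.3%) for the difference. This fit treats paired arrays as independent. With the array sets that hold the pairs as a random block there were 214 (4.56%), 190 (4.05%) and 257 (5.47%). In females 46.2% of clones had a higher mean in EtOH, and in males 53.5%. These counts depended on single arrays. Leaving 1 array out of a group leaves 1 array against 2 within that sex, and the lone array is assumed to vary like those of the other groups. For the difference between sexes limma then called 51 clones without Female Air 1, of which 34 were negative and 17 positive, so that the main direction turned. It called 32 without Female EtOH 2, 6 without Male Air 2, 4 without Male EtOH 2 and 3 without Female Air 2. In females it called 13 without Female Air 1, of which 9 were lower in EtOH, 6 without Female EtOH 2 and 1 without Female Air 2. In males it called 16 without Male EtOH 1 (13 higher and 3 lower), 1 without Male Air 1 and 0 without any of the other 6 arrays.

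An EST weakly similar to NSD1, a histone methyltransferase, was called in all 3. It read 5.79 and 5.84 in female Air, 7.07 and 7.16 in female EtOH, 6.75 and 7.15 in male Air and 6.06 and 6.09 in male EtOH. The 2 female EtOH and 2 male Air arrays were high and the other 4 low, with a gap between them. Its effects were 1.30 in females (SE 0.15, limma adjusted p 0.000113) and -0.88 in males (SE 0.15, limma adjusted p 0.0419, and 0.214 with the array sets as a random block), and their difference was 2.17 (SE 0.21, limma adjusted p 6.01e-06). RGS2, which speeds the shut-off of G-protein signals and rises with neuronal activity, was the single titled gene among the 11. It read 5.75 and 5.71 in female Air, 6.52 and 6.25 in female EtOH, 6.02 and 6.58 in male Air and 5.83 and 5.72 in male EtOH, with a female minus male difference of 1.18 (SE 0.22, limma adjusted p 0.0201) and 0.07 over both sexes. The others were an EST highly similar to ribonuclease inhibitor (1.02), an EST weakly similar to a hypothetical worm protein (1.58), and 7 untitled ESTs between -1.25 and 1.26.

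The called clones lay close together on the array. Of the 11, 8 (72.7%) were within 3 rows and 3 columns of another called clone, in 2 corners of the printed grids, against 3.34% of all clones within that distance of a called clone. RGS2 was next to the worm-protein EST and to 2 further called ESTs. When each spot was centred on its neighbours and arrays were median scaled in place of quantile normalisation, limma called 1 clone, the NSD1-like EST, at 1.44 (adjusted p 3.25e-05), and RGS2 fell to 0.44 (adjusted p 0.634). Median scaling alone gave 9 calls. With the array sets as a random block 2 clones were called for the difference, and the limma adjusted p was 0.00174 for the NSD1-like EST and 0.222 for RGS2.

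**Figure D4:**
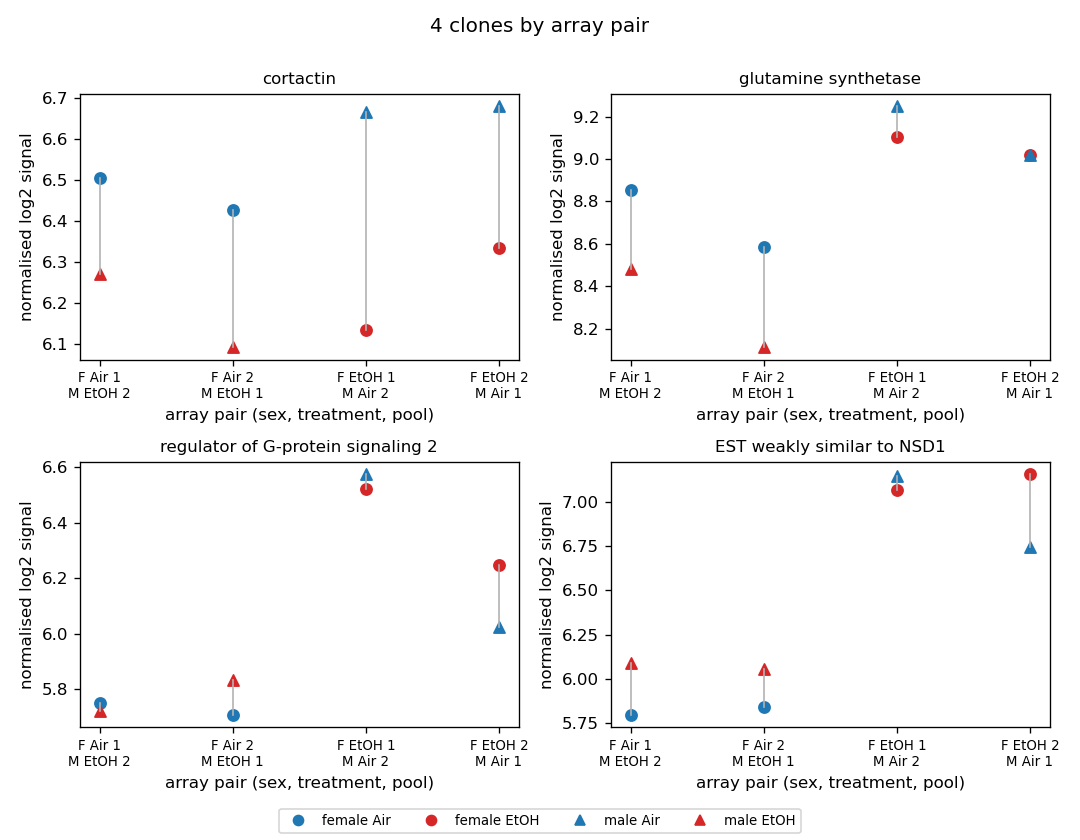
Normalised log2 signal of 4 clones on the 8 arrays, drawn by array pair (blue, Air; red, EtOH; circles, female; triangles, male; a line joins the members of a pair). Cortactin is lower in the EtOH member of each pair, whereas for RGS2 and the NSD1-like EST both members are high in the last 2 pairs and low in the first 2.

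The named genes of smallest p within a sex, above background on both arrays of the higher treatment, did not pass the threshold. In females the genes of smallest p with higher means in EtOH were RGS2 (0.66), the transcription factor SRY-box containing gene 3 (0.49), histone deacetylase 1 (0.54), LEK1 (0.41) and outer dense fiber of sperm tails 2 (0.57), with limma adjusted p of 0.202 for RGS2 and 1.00 for the rest. Those with lower means were small EDRK-rich factor 2 (-0.24), melanocyte specific gene 2 (-0.62), the AMP-activated kinase subunit gamma 1 (-0.60), Blu (-0.65) and deformed epidermal autoregulatory factor 1 (-0.25), with adjusted p from 0.558 upward. In males the higher genes were muskelin 1 (0.58), the neuronal G protein alpha o (0.84), the phosphotyrosine adaptor DAPP1 (0.39), type 2 deiodinase (0.52) and WW domain binding protein 5 (0.54). The lower ones were glutamine synthetase (-0.84), RGS2 (-0.52), adducin 3 (-0.73), the cytokine cardiotrophin 1 (-0.38) and SRY-box containing gene 3 (-0.49), with limma adjusted p from 0.267 for glutamine synthetase upward. Muskelin 1 and WW domain binding protein 5 stood at 0.96 (limma adjusted p 0.000119) and 1.04 (limma adjusted p 4.15e-06) when Male EtOH 1 was left out. That leaves Male EtOH 2 alone against 2 Air arrays, so these values rest on 1 array that is assumed to vary like the arrays of the other groups.

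Among named genes above background on all 4 arrays of the higher treatment, the female minus male difference had its smallest p for glutamine synthetase, at 1.18 (SE 0.26, limma adjusted p 0.0605). It passed with only clones above background on at least 4 of the 8 arrays (limma adjusted p 0.0378), with array weights (0.00875) and without Female Air 1 (0.0322), and cannot be told apart from the array pairs. Smad2 (MAD homolog 2, 0.92), RAB24 (0.91), adducin 3 (0.91) and the clone titled bright and dead ringer (0.58) followed in the positive direction. In the negative direction stood Abcg1 (-0.75), the AMP-activated kinase subunit gamma 1 (-0.99), G protein alpha 11 (-0.86), type 2 deiodinase (-0.75) and Blu (-1.09), with limma adjusted p from 0.202 to 0.242. For Abcg1 and G protein alpha 11 the sign depended on the processing. The difference was 0.23 and 0.02 after local centring with median scaling and, for Abcg1, 0.01 after median scaling alone.

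**Figure D5:**
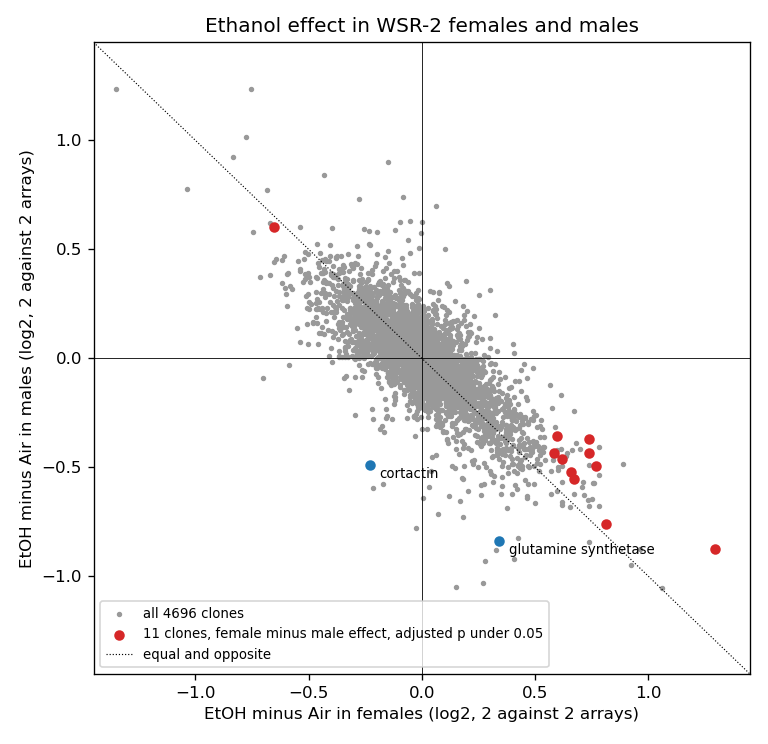
EtOH minus Air on the log2 scale in males against females for 4696 clones (grey), with the 11 clones called for the difference between sexes in red and cortactin and glutamine synthetase in blue. The cloud follows the dotted line of equal and opposite effects (Pearson -0.76), and cortactin lies off it, with -0.23 in females and -0.49 in males.

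The last comparisons asked whether the effect in WSR-2 differed from that in WSR-1, which received the same injection, and from the mean of the other 3 populations, of which WSP-2 received a higher dose. Limma called 0 clones (0%) for either. At an unadjusted p under 0.05 there were 129 clones (2.75%) against WSR-1, 73 of them more positive in WSR-2, and 58 (1.24%) against the other 3, 25 of them more positive. Against WSR-1 the named genes of smallest p were phospholipase C epsilon 2, at 0.11 in WSR-2 and -0.31 in WSR-1, Fbxl12 (0.05 and -0.31), Klf10, the TGFB inducible early growth response gene (0.01 and -0.63), the neurogenic factor achaete scute homolog 1 (0.06 and -0.65) and hydroxysteroid sulfotransferase (0.08 and -0.33). On the other side were the drug-metabolising CYP3A25 (-0.08 and 0.31), a semaphorin (0.04 and 0.66), endonuclease G (-0.32 and 0.29), toll-like receptor 4 (-0.06 and 0.33) and the bright and dead ringer clone (-0.01 and 0.33). In these pairs of values the larger one in absolute size was that of WSR-1, except for endonuclease G. The limma adjusted p of every difference was 1.00. The EtOH and Air arrays of WSR-1 were not balanced within the array sets, so what a set shares can remain in its effect.

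Against the mean of the other 3 populations the differences were 0.37 for Klf10 (SE 0.22), 0.24 for phospholipase C epsilon 2, 0.27 for calpain 5, 0.20 for the replication factor titled origin of replication 3 homolog and 0.22 for Abcg1. In the negative direction they were -0.57 for endonuclease G (SE 0.22), -0.30 for CYP3A25, -0.59 for sepiapterin reductase, -0.27 for lysyl oxidase-like and -0.36 for glutamine synthetase, all with a limma adjusted p of 1.00. The WSR-2 values of endonuclease G and sepiapterin reductase in these differences are the ones that rested on Male EtOH 1. The male WSP-2 arrays fell in the sets of the female WSR-2 arrays of the same treatment. What a set shares therefore does not drop out of the WSP-2 effect. A difference between populations cannot be told apart from the array sets here. The SD of the effect over clones was 0.068 in WSR-2 and between 0.16 and 0.18 in the other populations. In WSR-2 what a pair shares drops out of this effect, whereas the other populations lack such a balance of treatments within sets. Within 1 sex of WSR-2 the SD was 0.20 in females and 0.19 in males. Whether the size of the effect differed between populations was not tested. Limma called 4 clones in WSP-1, 0 in WSP-2 and 2 in WSR-1 for their own effects, and whether these counts differ from that of WSR-2 was not tested.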

How the data were processed

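Prefrontal cortex RNA was hybridised to spotted cDNA arrays of 1 colour, 8 of them from WSR-2 among 32. Per the file headers, an array file gives an intensity for every spot and a single background intensity per array, which the authors had not subtracted. The authors also deposited a table of log2 values, which ranks spots exactly as the intensity does and is blank below background (20.4% to 48.9% of clones on the 8 arrays); its column medians ran from 7.49 to 8.63, and its centring and scaling stay unknown. The imager and spot-finding software were not given in the sources used here.

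Intensities of 5355 spots were corrected by normexp (offset 50) in limma 3.58.1 under R 4.3.3. Then 4696 clones were quantile normalised over 32 arrays and put on the log2 scale, leaving out 192 genomic DNA spots and 467 spots without identity. The effect over both sexes came from lmFit with sex within population as a block and 1 EtOH effect per population (20 residual and 5.36 prior degrees of freedom). Effects by sex came from 16 group means (16 and 5.28), with eBayes (trend), 2-sided, Benjamini-Hochberg over all clones at 0.05. The fit was run on simulated data in which arrays varied independently. That run cannot show how the p-values behave where arrays form pairs. The number of arrays limits the precision.

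Named genes are clones with a gene title, above background on every array of the treatment with the higher mean, ordered by p: 12 per direction over both sexes, 5 for each other comparison, and per list the 2 of smallest p and the brightest. Members, lists, tests and rule were chosen with earlier results of these data known. Genes in further clauses (Ier3, Egr1, Klf10 and Rgs2 in the sexes, and called clones) were chosen after their values were seen. Titles were matched to list symbols by hand, 141 of 142 of which stand in RefSeq; where a gene had several clones the brightest was used. Some genes that the rule names are not reported here.

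Array sets were cut at a height of 0.75 from average-linkage clustering of the genomic DNA spots. The 4 pairs as a block were fitted on the 8 WSR-2 arrays alone (2 residual and 7.47 prior degrees of freedom). The sets as a random block were fitted on all 32 arrays (consensus correlation 0.54). Both were added after seeing the data. Pool numbers do not pair arrays in the labels. Alternatives are given below. Figures were drawn with matplotlib 3.10.9 under Python 3.11.15.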

Additional observations from a re-analysis of the deposited data

Results flagged for a closer look

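Dixon's ratio was taken in 52 groups of 4 arrays, of array measures and of the 24 named genes. Its nominal rate of about 1 in 20 is no yardstick here. The genes were chosen on the EtOH minus Air contrast, and each group mixes both sexes. In 5 groups 1 array lay far from the other 3. They were adducin 3 on Female Air 2 (8.47), deformed epidermal autoregulatory factor 1 on Male EtOH 1 (6.05), GILZ on Male Air 2 (6.53), Cd74 on Female EtOH 1 (10.58) and sepiapterin reductase on Male EtOH 1 (5.86). The ethanol effect differed between females and males in 11 clones past the threshold, a difference that cannot be told apart from the array pairs. The genomic DNA control spots were left out of the clones compared, but their correlations defined the array pairs and sets. Their median correlation within the 4 array pairs was 0.53, against -0.03 over the other 24 combinations. That contrast follows from the definition of the pairs.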

How the results depend on the processing

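The count of clones called over both sexes was 0 under every alternative run, as was that against the other 3 populations. In females (2 in the main setting) it was 6 with median scaling, 7 with cyclic loess, 1 with local centring with median scaling, with no background correction and with the random block of array sets, 8 with array weights, and 0 with the authors' values and with the 8 arrays alone. In males (1) it was 3 with array weights and 0 with median scaling, cyclic loess, local centring with median scaling, no background correction, offset 16, the authors' values, the 8 arrays alone, the replicate block by pool number and the random block. For the female minus male difference (11) it was 1 with local centring with median scaling, 6 with the authors' values (1808 clones), 0 with the 8 arrays alone, 73 with array weights and 2 with the random block. Against WSR-1 (0) it was 1 with 16 group means, 7 with array weights and 1 with the random block. Leaving out 1 array gave 1 to 13 calls in females, 0 to 16 in males, 3 to 51 for their difference and 0 over both sexes and against other populations. The arrays behind these ranges are named above. Same-numbered Air and EtOH pools had correlated deviations of 0.06 in females and 0.07 in males, so the numbers do not pair the arrays, and the replicate block moved no count by more than 1. The share of higher clones among those at an unadjusted p under 0.05 in females was 117 of 212, and 194 of 239 with median scaling. Of 1433 values of named genes under alternatives, 7 reversed: ferritin light chain 1 to -0.012 and sepiapterin reductase to 0.18 with the authors' values, sepiapterin reductase to 0.048 without Male EtOH 1 (range -0.48 to 0.048 when 1 array was left out), type 2 deiodinase to -0.0069 without Male Air 2 (range -0.0069 to 0.25), Abcg1 to 0.013 with median scaling and 0.23 with local centring with median scaling, and G protein alpha 11 to 0.018 with local centring with median scaling. A further 10 values gained a call: the difference between sexes of glutamine synthetase with the background filter, array weights and without Female Air 1, its male effect with array weights, the differences of Abcg1, the AMP-activated kinase subunit and G protein alpha 11 with array weights, that of Blu without Female Air 1, and the male effects of muskelin 1 and WW domain binding protein 5 without Male EtOH 1. The cause was not tested. Dim signal limits the data: 317 clones were above background on none of the 8 arrays.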
